A study of Mus musculus and Homo sapiens with 10 samples.

Results

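In NIH3T3 mouse fibroblasts, 201 of 3704 peaks of the upstream binding factor (UBF) lay at sites with an incomplete set of active features. A UBF peak was counted here if it shared at least 1 bp with 1, 2 or 3, but not all 4, of the peak lists of RNA polymerase II (Pol II), H3K4me3, H3K9ac and H4 hyperacetylation. These peaks were 5.43% of the UBF list. The other UBF peaks had all 4 lists (1759 peaks, called complete below) or none of the 4 (1744 peaks). The peaks were chosen by their measured overlap with these 4 lists, so the combinations below are a description and were not tested.

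NIH3T3 is an immortalized fibroblast line. The cells were grown in serum-supplemented medium and harvested while growing exponentially, with no treatment or genetic change named in the labels. Each antibody gave 1 deposited list, by chromatin immunoprecipitation and sequencing (ChIP-seq): UBF1/2, Pol I (its largest subunit, POLR1A), Pol II (phosphorylated C-terminal repeat), H3K4me3, H3K9ac, H4 hyperacetylation and H3K9me3. The design names 2 biological replicates for UBF, for which 1 list was given, so every list is a sample of n = 1 and no test between conditions was possible. The lists hold positions only, and the depth behind each peak is unknown. Ranges in parentheses after a share are 95% binomial intervals by the exact Clopper-Pearson method. They reflect the number of peaks counted, not the spread between experiments, and neighbouring peaks of a library share their source. Fibroblast identity was not checked, since the lists hold no expression values.

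UBF is a protein with several HMG boxes that binds and bends DNA across the ribosomal RNA genes, where it helps RNA polymerase I (Pol I) to start transcription and keeps the gene copies open. Outside those genes, active Pol II promoters usually carry H3K4me3, H3K9ac and acetylated H4 together. Acetylation without H3K4me3 is often seen at distal regulatory elements such as enhancers. H3K9me3 is a mark of silent chromatin and repeats.

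Pol II without any active mark was the commonest incomplete set. It accounted for 85 of the 201 peaks (42.3%, 35.4 to 49.4). The reverse set, with H3K4me3, H3K9ac and H4 hyperacetylation but no Pol II, held 43 peaks (21.4%, 15.9 to 27.7). Acetylation without H3K4me3 was found at 48 peaks (23.9%, 18.2 to 30.4), and the remaining 25 (12.4%, 8.21 to 17.8) were other sets that included H3K4me3. These 4 groups do not overlap and together hold all 201 peaks. Taken list by list, Pol II was present at 113 of the peaks (56.2%), against 50.5% of the whole UBF list. H4 hyperacetylation was present at 99 (49.3%, whole list 50.2%), H3K4me3 at 68 (33.8%, whole list 49.3%) and H3K9ac at 59 (29.4%, whole list 49.1%). The rule selects on these 4 lists, and most of the whole list has all or none of them, so its shares are no reference for the incomplete peaks. By number of lists, 115 peaks had 1 list, 34 had 2 and 52 had 3.

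**Figure D1:**
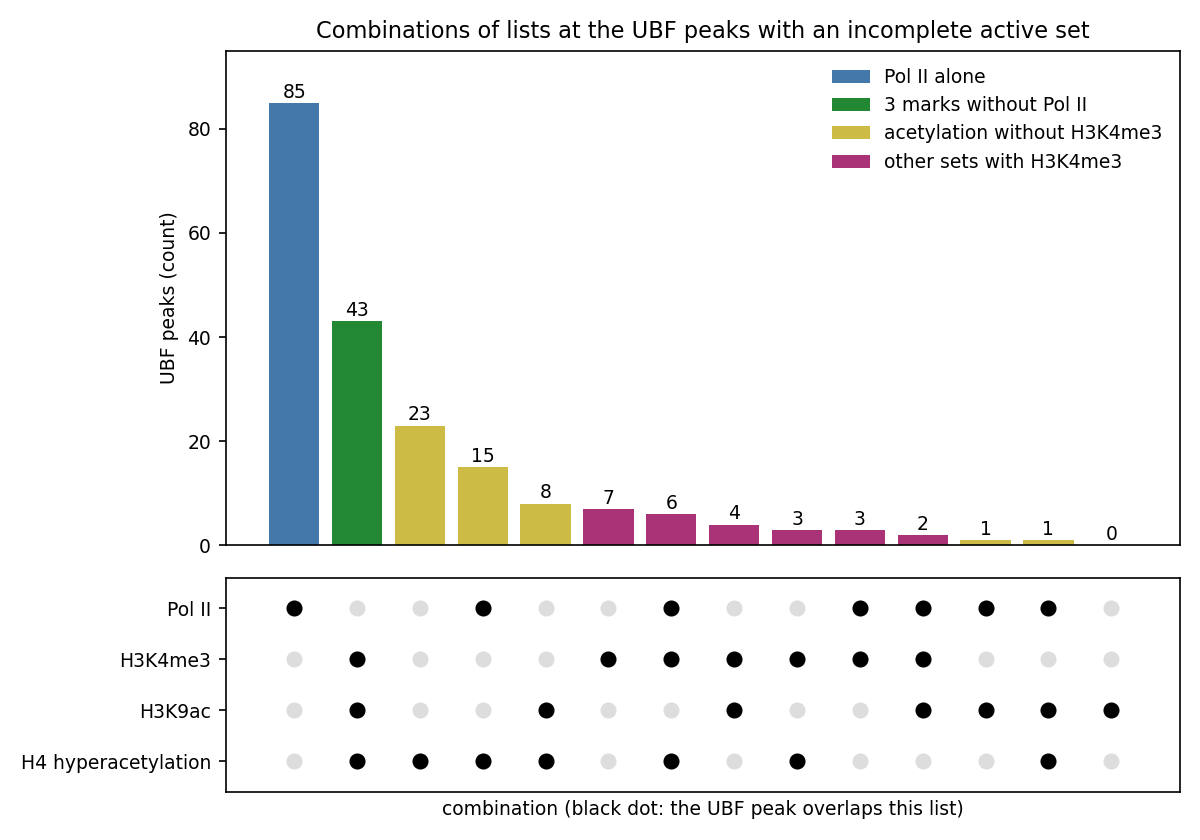
Number of UBF peaks (vertical axis, count) in each of the 14 possible incomplete combinations, with a black dot in the lower panel for each list that the peaks overlap and colours for the 4 groups. Pol II alone (85) and the 3 marks without Pol II (43) are the tallest bars, and no UBF peak met H3K9ac alone.

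Of the 14 possible combinations, 13 occurred. The 48 peaks with acetylation but no H3K4me3 were 23 with H4 hyperacetylation alone, 15 with Pol II and H4 hyperacetylation, 8 with H3K9ac and H4 hyperacetylation, 1 with Pol II and H3K9ac, and 1 with Pol II and both acetylation lists. The 25 other sets with H3K4me3 were 7 with H3K4me3 alone, 6 with Pol II and H4 hyperacetylation, 4 with H3K9ac, 3 with H4 hyperacetylation, 3 with Pol II, and 2 with Pol II and H3K9ac. The acetylation lists parted mostly in 1 direction: H4 hyperacetylation without H3K9ac was found at 47 peaks and H3K9ac without H4 hyperacetylation at 7. H3K9ac occurred alone at none of them: of the 1785 H3K9ac peaks that met UBF, 0 lacked the other 3 lists (exact upper limit 0.206%). The H4 hyperacetylation list is longer than the H3K9ac list, with 41519 against 28308 peaks.

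The incomplete peaks were intermediate in width. Their median was 1027 bp (quartiles 904 and 1174, range 509 to 4509), between 868 bp for UBF peaks with none of the 4 lists (quartiles 730 and 978) and 1153 bp for complete peaks (976 and 1462.5). With the UBF list divided at the quartiles of width into 4 groups, they made up 3.24% of the narrowest group (30 of 927 peaks of 216 to 832 bp), 4.96% of the next (46 of 927), 8.42% of the third (78 of 926 peaks of 982 to 1194 bp) and 5.09% of the widest (47 of 924). The share was highest in the third group, with an interval of 6.72 to 10.4 against 3.76 to 6.71 in the widest. A wider peak meets a list more easily, so the rule ties these shares to width. From narrow to wide, peaks with none of the 4 lists made up 82.2%, 60.5%, 38.4% and 7.03% of the groups. Complete peaks made up 14.6%, 34.5%, 53.1% and 87.9%. The shares by width are a description and were not tested. Of the 85 peaks with Pol II alone, 42 were in the third group, and 9, 17 and 17 in the narrowest, the next and the widest.

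Pol I was met more often at the incomplete peaks than in either of the other classes. Of the 201 peaks, 40 overlapped Pol I (19.9%, 14.6 to 26.1), against 7.32% of the whole UBF list. The share was 7.73% of complete peaks (136 of 1759, 6.53 to 9.08) and 5.45% of peaks with none of the 4 lists (95 of 1744, 4.43 to 6.62), and neither interval meets that of the incomplete peaks. Pol I was not used to choose the peaks. The incomplete share was above that of complete peaks in each of the 4 width groups, at 16.7%, 17.4%, 17.9% and 27.7% of incomplete peaks against 3.70%, 6.56%, 8.33% and 8.5% of complete peaks, from narrow to wide. The intervals overlapped in the first 3 groups, with 5 of 30, 8 of 46 and 14 of 78 incomplete peaks, and were apart in the widest (15.6 to 42.6 against 6.67 to 10.6). Peaks with none of the 4 lists met Pol I at 3.54%, 7.49%, 6.46% and 4.62%, which in the second group was above the complete peaks. The difference was absent when each list was restricted to its wider 50%: Pol I was then met by 5.29% of the incomplete and 5.64% of the complete peaks. With at least 50% of the UBF peak covered, 0.568% of the incomplete and 0.120% of the complete peaks met Pol I, whose peaks have a median width of 230 bp.

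H3K9me3 was met by 50 of the 201 peaks (24.9%, 19.1 to 31.4), against 16.2% of the UBF list. This was close to the share of complete peaks (513 of 1759, 29.2%, 27.0 to 31.4), with overlapping intervals, and above that of peaks with none of the 4 lists (37 of 1744, 2.12%, 1.5 to 2.91). Within the incomplete peaks the share was 3 of 30 in the narrowest group and 24 of 47 (51.1%, 36.1 to 65.9) in the widest. From narrow to wide it was 10%, 10.9%, 23.1% and 51.1%, against 25.2%, 18.4%, 24.4% and 36.9% of complete peaks. The incomplete share was thus lower in the 2 narrower groups and higher in the widest, with intervals that overlap in every group. In the wider 50% of each list, H3K9me3 was met by 8.82% of the incomplete and 22.1% of the complete peaks. Pol I and H3K9me3 occurred together at 13 of the 201 peaks (6.47%, 3.49 to 10.8), against 2.24% of the UBF list, and 124 peaks had neither.

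**Figure D2:**
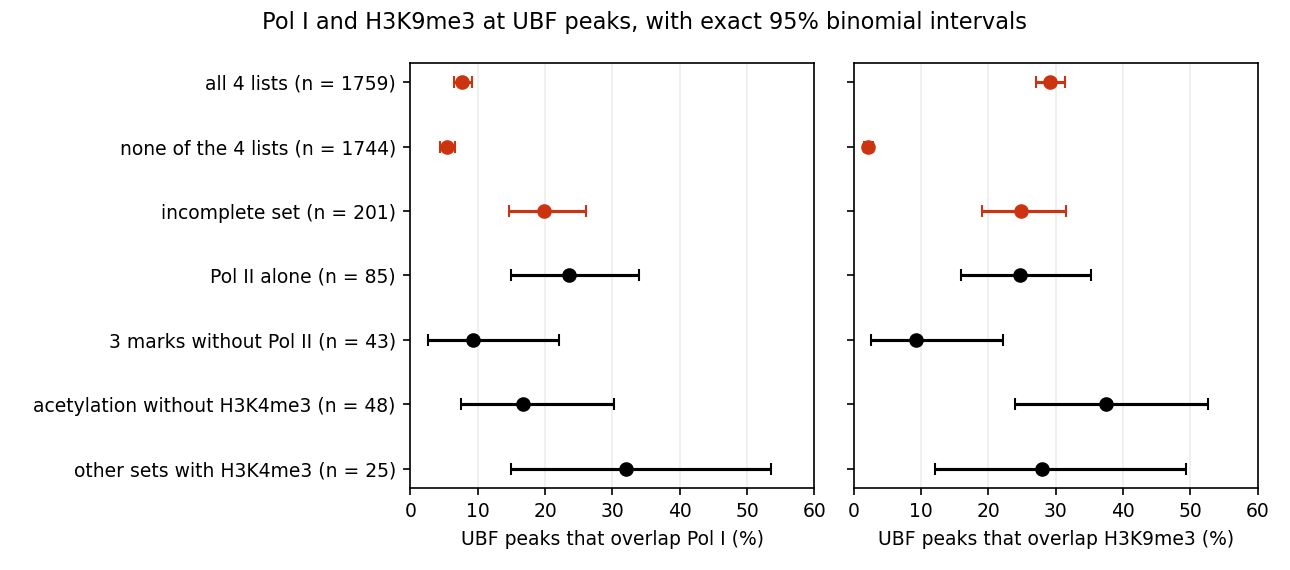
Share of UBF peaks that overlap Pol I (left) and H3K9me3 (right), in percent, for the 3 classes of UBF peaks (red) and the 4 groups of incomplete peaks (black). Points are shares and bars exact 95% binomial intervals, and the Pol I share of the incomplete set (19.9%) lies above those of peaks with all 4 lists (7.73%) and with none (5.45%).

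Pol I and H3K9me3 were both met more often at incomplete peaks with Pol II than at those without. Of the 113 incomplete peaks with Pol II, 31 overlapped Pol I (27.4%, 19.5 to 36.6) and 41 overlapped H3K9me3 (36.3%, 27.4 to 45.9). Of the 88 without Pol II, 9 overlapped Pol I and 9 overlapped H3K9me3 (10.2%, 4.78 to 18.5, for each). The UBF peaks with Pol II were wider than those without, with medians of 1067 and 973 bp, and these shares were not compared at equal width. Of the overlaps with Pol II present, 10 of the 31 with Pol I and 19 of the 41 with H3K9me3 came from the 21 peaks that had H4 hyperacetylation but no H3K9ac. For Pol II alone the shares were 23.5% (15.0 to 34.0) and 24.7% (15.99 to 35.3), and these intervals overlap those of the peaks without Pol II. Complete peaks, all of which have Pol II, met Pol I at 7.73%. All 13 peaks with Pol I and H3K9me3 together had Pol II, and none had H3K9ac. Incomplete peaks without H3K9ac met H3K9me3 at 31.0% (44 of 142, 23.5 to 39.3), and those with H3K9ac at 10.2% (6 of 59, 3.82 to 20.8). Of those 44, 19 came from the 21 peaks with Pol II and H4 hyperacetylation but no H3K9ac. Complete peaks, all of which have H3K9ac, met H3K9me3 at 29.2%. The UBF peaks without H3K9ac were also wider, with a median of 1060.5 against 971 bp, and the shares were not compared at equal width.

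At the 85 peaks with Pol II alone, the Pol II peak was narrow and sat near the middle of the UBF peak. The UBF peaks had a median width of 1044 bp (509 to 1574) and their Pol II peaks a median of 442 bp (229 to 947), against 1369 bp for Pol II at complete peaks and 683 bp over the Pol II list. The median distance between the centres was 64.5 bp, and 81 of 85 lay within 250 bp. In 77 of 85 the Pol II peak lay wholly inside the UBF peak, of which Pol II covered a median of 42.3%. The widest of these UBF peaks lay on chromosome 16, from 87164719 to 87166293 (1574 bp), with a Pol II peak from 87165169 to 87165912 (743 bp). Its nearest H4 hyperacetylation peak was 80278 bp away, its nearest H3K4me3 peak 103736 bp and its nearest H3K9ac peak 187243 bp.

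**Figure D3:**
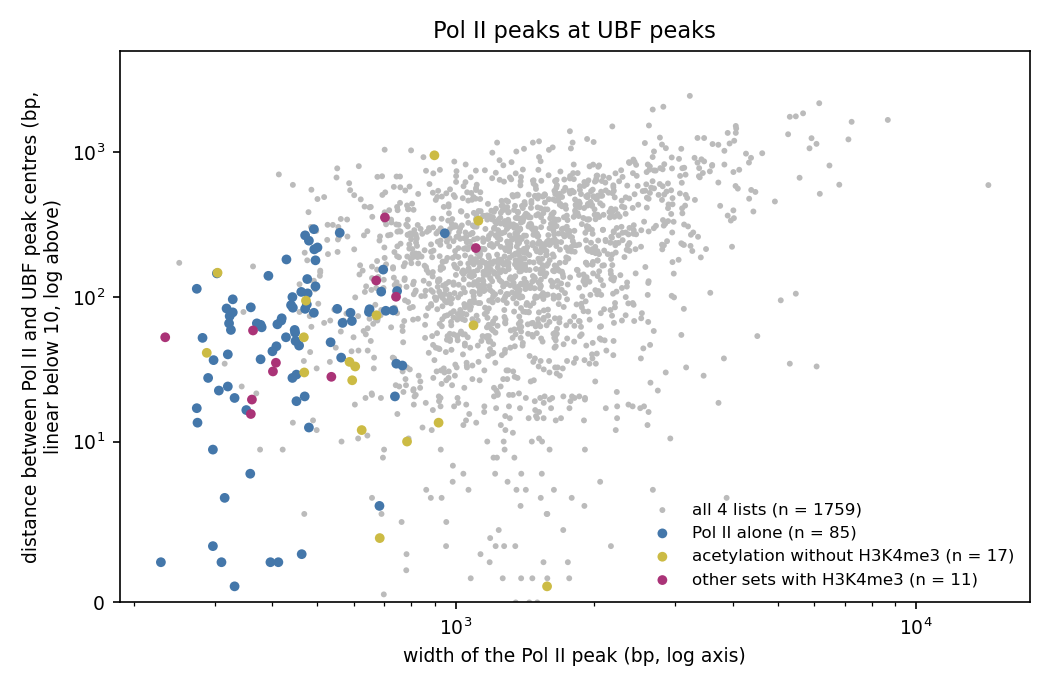
Width of the Pol II peak (horizontal, bp, log axis) against the distance between the centres of the Pol II and UBF peaks (vertical, bp, linear below 10 and log above) for each UBF peak with Pol II, using the widest Pol II peak where there are several. Incomplete peaks (colours) lie at the narrow end, and Pol II alone spans 229 to 947 bp.

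Some complete peaks had narrow Pol II peaks too, though not as narrow. Among UBF peaks whose Pol II peak was under 683 bp, its median width was 428 bp at 93 incomplete peaks (quartiles 328 and 480) and 568 bp at 112 complete peaks (497.25 and 640). The median distance between centres was 56.5 bp at the incomplete and 109.75 bp at the complete peaks. The Pol II peak lay inside the UBF peak at 94.6% (87.9 to 98.2) and 76.8% (67.9 to 84.2). These are not compared at equal widths, and a narrower peak fits inside UBF more easily. Pol I was met by 28.0% of the incomplete (26 of 93, 19.1 to 38.2) and 19.6% of the complete peaks (22 of 112, 12.7 to 28.2), with overlapping intervals. In complete peaks the share with narrow Pol II was above that over all widths (7.73%). In incomplete peaks with Pol II it was nearly the same, at 28.0% with narrow Pol II and 27.4% over all widths.

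Few histone marks were near the peaks with Pol II alone, which meet none by definition, and UBF peaks with none of the 4 lists were similar. H3K4me3, H3K9ac and H4 hyperacetylation lay within 5000 bp of 4.71%, 5.88% and 8.24% of the peaks with Pol II alone. For UBF peaks with none of the 4 lists the shares were 7.18%, 7.01% and 10.7%, with overlapping intervals. At the 85 peaks with Pol II alone, the nearest peak of any of the 3 marks was at a median of 59796 bp. None lay within 1000 bp (the nearest was 1439 bp away), and 8 of 85 lay within 5000 bp (9.41%, 4.15 to 17.7). Pol I was met by 20 of these 85 UBF peaks and H3K9me3 by 21, with 4 having both and 48 neither. The Pol I peaks there had a median width of 119.5 bp and lay inside the UBF peak in all 20 cases, with a median of 57.25 bp between centres. At UBF peaks with none of the 4 lists, Pol I was much the same: 104 bp wide, inside in all 95 cases and 51 bp between centres. For the whole Pol II list, 86 of 1995 Pol II peaks with UBF lacked every histone mark (4.31%, 3.46 to 5.30), against 9806 of 28244 without UBF (34.7%, 34.2 to 35.3). The Pol II peaks with UBF were wider, with medians of 1271 against 658 bp, and the shares were not compared at equal width. Those 9806 were of median width 524 bp and met Pol I at 0.0816% (8 peaks, 0.0352 to 0.161) and H3K9me3 at 5.89% (578 peaks, 5.44 to 6.38). These overlaps are with the Pol II peak itself. Those of the 85 are with the wider UBF peak (median 1044 bp), so the shares are not like for like.

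The count with Pol II alone depended on the overlap asked for. It was 18 with at least 50% of the UBF peak covered and 25 in the wider 50% of each list, and it stayed at 85 when every UBF peak was set to 500 bp around its centre.

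The 43 peaks with all 3 marks and no Pol II had another geometry. The median width was 2003 bp for their H3K4me3 peaks (755 to 17321), 1938 bp for H3K9ac and 1469 bp for H4 hyperacetylation. At 18, 17 and 15 of the 43, respectively, the peak was narrower than the median of its list (1685, 1586 and 1197 bp). H3K4me3 covered a median of 98.6% of the UBF peak and covered it fully in 21 of 43. The centres of H3K4me3 and UBF were 449.5 bp apart at the median, against 261 bp at complete peaks, where H3K4me3 was wider (3071 bp) and covered 95.6% of UBF peaks fully. The missing Pol II was at a median of 17145 bp, within 500 bp at 7 peaks and within 5000 bp at 12 (27.9%, 15.3 to 43.7). Pol I and H3K9me3 were each met by 4 of the 43 (9.30%, 2.59 to 22.1), and no peak had both.

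The widest of this group lay on chromosome 17, from 5840647 to 5842294 (1647 bp). H3K4me3 (5840580 to 5842699) and H3K9ac (5840415 to 5842708) contained it, H4 hyperacetylation (5840640 to 5842245) covered 97.0% of it, and Pol II was 17201 bp away. The next widest, on chromosome X from 96132028 to 96133560 (1532 bp), lay wholly within all 3 marks, of 1977 to 2454 bp, with Pol II 45340 bp away. Both also lacked Pol I and H3K9me3. The count of this group was 90 when at least 50% of the UBF peak had to be covered.

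Among the 48 peaks with acetylation but no H3K4me3, 31 lacked Pol II and 17 had it. The 23 peaks with H4 hyperacetylation alone met Pol I and H3K9me3 in 3 cases each. The 8 peaks with H3K9ac and H4 hyperacetylation met no Pol I and H3K9me3 in 2 cases. The 15 peaks with Pol II and H4 hyperacetylation met H3K9me3 in 13 cases (86.7%, 59.5 to 98.3) and Pol I in 5. The missing H3K4me3 was at a median of 14042 bp for the 48 peaks, against 68715 bp at peaks with Pol II alone. It lay within 5000 bp at 19 of 48 (39.6%, 25.8 to 54.7) against 4 of 85 (4.71%, 1.3 to 11.6). By definition the 48 meet an acetylation peak and the 85 meet no mark. These distances are thus a description and support no difference between the groups.

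The 8 peaks with both acetylation lists and neither Pol II nor H3K4me3 were 699 to 1193 bp wide. The widest lay on chromosome 17 from 81353707 to 81354900, with H3K9ac from 81353827 to 81354851, H4 hyperacetylation from 81353835 to 81354529 and the nearest H3K4me3 peak 107699 bp away. Another, on chromosome 6 from 52118561 to 52119317 (756 bp), carried H3K9ac, H4 hyperacetylation and H3K9me3 peaks of 704, 643 and 746 bp, with Pol II 572 bp and H3K4me3 1840 bp away. It shared a 100-kb window with an incomplete peak from 52126964 to 52127700, which lay inside all 3 marks without Pol II, and with 4 complete peaks.

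The combination of Pol II and H4 hyperacetylation without H3K9ac had high shares of H3K9me3 and Pol I. It held 21 peaks, 15 without and 6 with H3K4me3, and was set aside after the values were seen. H3K9me3 was met by 19 of them (90.5%, 69.6 to 98.8) and Pol I by 10 (47.6%, 25.7 to 70.2), with 9 having both and 1 having neither. The lists were stacked near the centre of the UBF peak. The median widths were 588 bp for Pol II, 699 bp for H4 hyperacetylation, 970 bp for H3K9me3 and 177.5 bp for Pol I, and the median distances from the UBF centre were 30.5, 80.5, 111.5 and 82.5 bp. Pol II and H4 hyperacetylation lay inside the UBF peak in all 21. These shares rest on the 1 bp rule. With centres within 1000 bp the set had 113 peaks, of which 40.7% met H3K9me3 and 13.3% Pol I. In the wider 50% of each list it had 28 peaks, and each share was 7.14%.

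All 6 peaks with Pol II, H3K4me3 and H4 hyperacetylation but no H3K9ac carried H3K9me3, and 5 carried Pol I. The UBF peaks were 904 to 1445 bp wide. The widest, on chromosome 18 from 54858076 to 54859521, held Pol II from 54858502 to 54859039 (537 bp), H3K4me3 from 54858452 to 54859032 (580 bp), H4 hyperacetylation from 54858557 to 54859057 (500 bp), Pol I from 54858518 to 54858663 (145 bp) and H3K9me3 from 54858418 to 54859402 (984 bp). The next, on chromosome 2 from 5299592 to 5300965, held the same 5 lists at 672, 774, 953, 130 and 1226 bp. Another lay on chromosome 5 from 133072203 to 133073107 (904 bp). On chromosome 8 there were 2 such peaks, from 3753912 to 3754993 and from 15519273 to 15520593, and the centre of the 72 bp Pol I peak of the latter coincided with the UBF centre. The sixth, on chromosome 2 from 20820987 to 20822295, lacked Pol I. H3K4me3 at these peaks was 354 to 774 bp wide, below the list median of 1685 bp in all 6, and the nearest H3K9ac peak was between 65637 and 1244613 bp away.

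Among the 10 widest, 4 had Pol II and H4 hyperacetylation. On chromosome 1, from 194489827 to 194492739 (2912 bp), Pol II (1120 bp), H4 hyperacetylation (731 bp) and H3K9me3 (1139 bp) lay inside the UBF peak, with another UBF peak 83 bp away. Its Pol II centre was 335 bp from the UBF centre, the largest such distance of the 21. On chromosome 17, from 79486188 to 79488663 (2475 bp), the 3 lists measured 1579, 1274 and 1693 bp, and the centres of Pol II and UBF were 1 bp apart. On chromosome 7, from 89919189 to 89921075 (1886 bp), 3 Pol I peaks of 110, 517 and 338 bp covered 51.2% of the UBF peak, together with Pol II (1093 bp), H4 hyperacetylation (804 bp) and H3K9me3 (1066 bp). On chromosome 14, from 103863021 to 103864609 (1588 bp), Pol II, H4 hyperacetylation and 2 Pol I peaks were present and H3K9me3 was 92358 bp away.

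**Figure D4:**
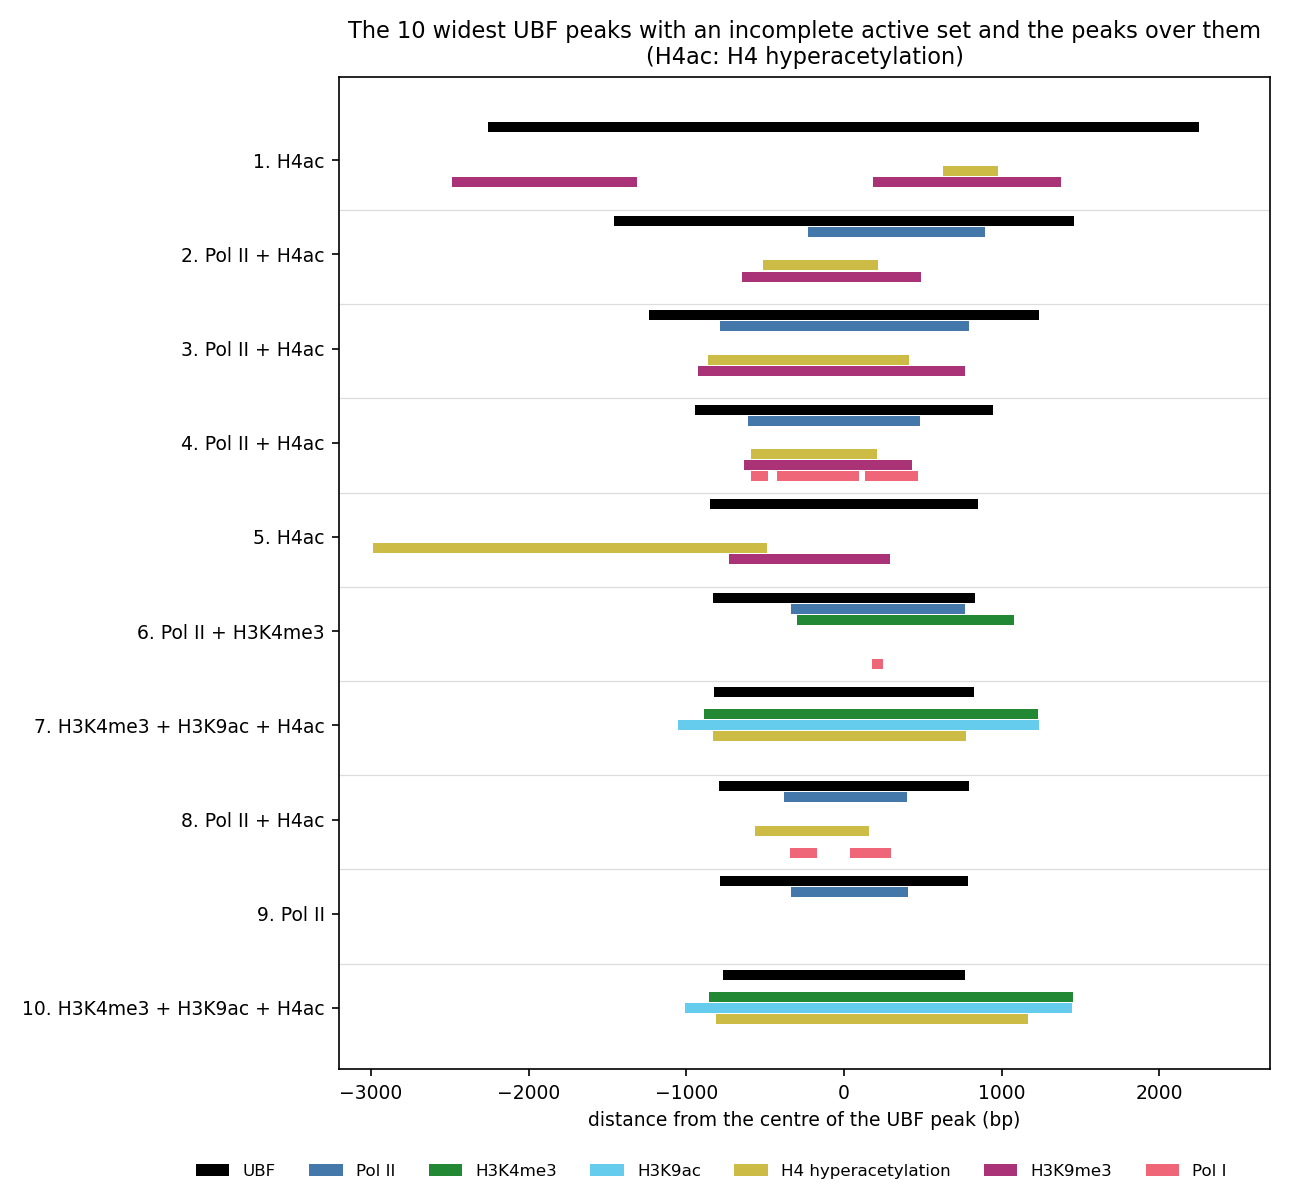
Peaks over the 10 widest incomplete UBF peaks, by distance from the centre of the UBF peak (horizontal, bp), with UBF in black, the other lists in colours and the combination at the left. In peaks 2, 3, 4, 6, 8 and 9 Pol II lies inside UBF, and in peaks 7 and 10 each of the 3 marks covers at least 97.0% of UBF without Pol II.

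The widest incomplete peak of all lay on chromosome 5, from 15203401 to 15207910 (4509 bp). It met only a 348 bp peak of H4 hyperacetylation (15206284 to 15206632), which covered 7.72% of it, and 2 H3K9me3 peaks that covered 47.3%. H3K4me3 lay 984 bp and H3K9ac 1071 bp outside it, and Pol II 51029 bp. A similar case on chromosome 13, from 99264652 to 99266354 (1702 bp), met the edge of a 2496 bp H4 hyperacetylation peak, with H3K9ac 554 bp and H3K4me3 759 bp away.

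The 25 other sets with H3K4me3 held few peaks each. Besides the 6 described above they met Pol I in 3 cases and H3K9me3 in 1. The widest, on chromosome 2 from 160430817 to 160432481 (1664 bp), had Pol II (1106 bp), H3K4me3 (1375 bp) and a 70 bp Pol I peak, with H3K9ac 12664 bp and H4 hyperacetylation 12698 bp away. The 7 peaks with H3K4me3 alone met neither Pol I nor H3K9me3, and the widest of them (chromosome 2, 75641022 to 75642360) had H4 hyperacetylation 80 bp outside it. On chromosome 1, a UBF peak from 39960308 to 39961539 met the ends of H3K4me3 and H3K9ac domains of 3955 and 4103 bp, and H4 hyperacetylation was 277 bp away. On chromosome 12, a peak from 87038855 to 87039863 had Pol II, H3K4me3 and H3K9ac, with H4 hyperacetylation 5574 bp away.

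The list an incomplete peak lacked was mostly further than 5000 bp away. For Pol II, 22 of the 88 incomplete peaks without it had a Pol II peak within 5000 bp (25%, 16.4 to 35.4), against 5.06% (4.07 to 6.22) of UBF peaks with none of the 4 lists. For H3K4me3 the shares were 17.3% (23 of 133, 11.3 to 24.8) and 7.18% (6.00 to 8.52), and for H3K9ac 16.2% (23 of 142, 10.6 to 23.3) and 7.01% (5.84 to 8.33). For H4 hyperacetylation they were 12.7% (13 of 102, 6.96 to 20.8) and 10.7% (9.29 to 12.3). The classes are defined by these same lists, and an incomplete peak has another of them at hand by the rule, so these distances are a description and support no difference between the classes.

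**Figure D5:**
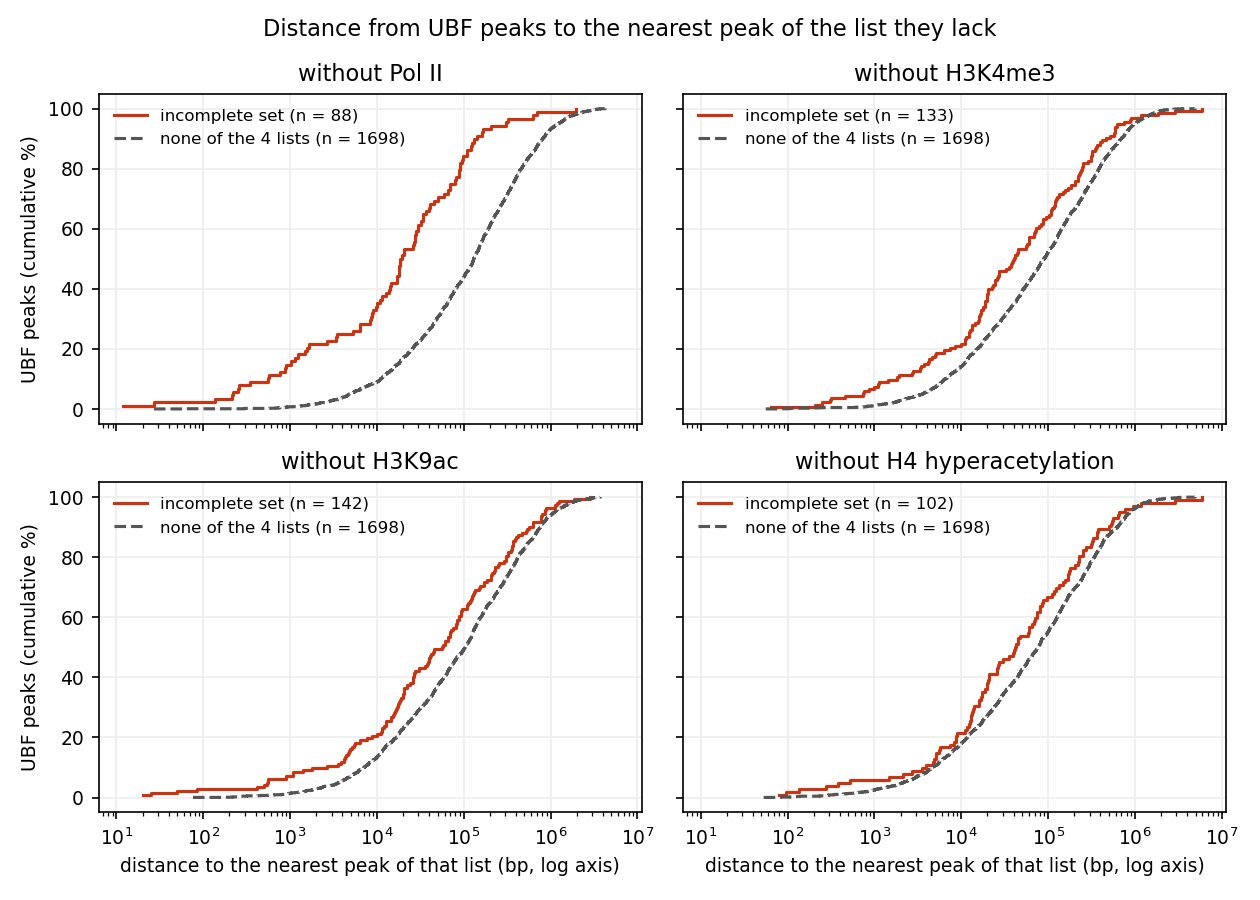
Cumulative share of UBF peaks (vertical, percent) against the distance to the nearest peak of the list they lack (horizontal, bp, log axis), for incomplete peaks (red) and UBF peaks with none of the 4 lists (dashed), in 1 panel per missing list. The gap between the curves is widest for Pol II, with medians of 18861 and 130299.5 bp, and 46 peaks on contigs that no list names are left out of the dashed curves.

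At the boundary of the rule, membership turned on a few bases. The smallest overlaps of a peak with its only list were 11, 15, 25, 53 and 70 bp, all with H4 hyperacetylation, the first on chromosome 6 from 140566522 to 140567762. Just outside, the UBF peaks with none of the 4 lists that came nearest to one missed it by 27, 53, 56, 62 and 76 bp. At the other boundary, the peaks with 3 lists nearest to the missing one lacked it by 12, 27, 65, 138 and 216 bp. The first of these (chromosome 1, 197066522 to 197067522) had all 3 marks and H3K9me3 with Pol II 12 bp away, and the third (chromosome 19, 61274006 to 61275031) was the only peak with Pol II and both acetylation lists but no H3K4me3. The complete peaks with the smallest overlap met their weakest list over 96, 98, 107, 118 and 128 bp.

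The incomplete peaks seldom shared a window of 100 kb, which was not compared with the other classes. Their median distance to the nearest other UBF peak was 211485 bp. It was 158885 bp for complete peaks and 249373 bp for peaks with none of the 4 lists. The incomplete peaks lay in 197 windows of 100 kb, of which 4, on chromosomes 6, 7, 12 and 13, held 2 of them and none held more. In 165 windows the incomplete peak was the only UBF peak. On chromosome 12, 2 neighbours 1787 bp apart differed in their sets: the peak from 70708923 to 70709966 had Pol II alone, and that from 70711753 to 70713199 had Pol II, H4 hyperacetylation, Pol I (574 bp) and H3K9me3. On chromosome 7 the peak from 137427651 to 137428506 had Pol II (303 bp) and Pol I (271 bp), and the other, from 137408666 to 137409770, lay inside all 3 marks without Pol II.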

How the data were processed

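Each NIH3T3 list was deposited by the authors as called peaks with a chromosome, a start and an end in base pairs, and with no score, height or read count. Per the submitters' processing notes, CASAVA 1.8.2, BWA, Picard and the builds mm9 and hg19 were used. For the peak caller, its threshold, filters and any pooling of the UBF replicates, nothing is given in the sources used here. A stricter threshold could only be imitated by peak width.

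The 7 mouse lists were used (n = 1 each), and the 3 human lists cannot meet mouse peaks. Peaks sharing at least 1 bp were called overlapping (Python 3.11.15, scipy 1.17.1). The code was tested on simulated data, and bedtools 2.31.1 gave the same result for all 3704 UBF peaks. Where several peaks of a list met a UBF peak, the width is that of the widest and the centre distance the smallest. Coordinates are mm9, as in the files. The reference tables at hand are of GRCm38, so no gene or sequence was assigned. In the UBF list 46 peaks lie on contigs that the other lists do not name.

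The peaks and groups were chosen with earlier results of these data known. Regions named were the 10 widest, the widest of each combination, up to 5 with Pol I and H3K9me3, those at the boundaries of the rule and the fullest windows. Other regions, such as the remaining peaks with Pol II, H3K4me3 and H4 hyperacetylation, were chosen after their values were seen.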

Additional observations from a re-analysis of the deposited data

How the results depend on the processing

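The number of incomplete UBF peaks stayed within 1.5 times of 201 in 8 of 10 alternatives, as a count not scaled to the length of the UBF list. It was 413 with peak centres within 1000 bp and 73 with Pol II left out of the set, since the 85 peaks with Pol II alone then had none of the set and the 43 with the 3 marks had all of it. With centres within 1000 bp, acetylation without H3K4me3 was found at 168 peaks, the Pol I share was 14.5% and the median width 1111 bp. In the wider 50% of each list the Pol I share was 5.29%, the H3K9me3 share 8.82% and the median width 1122.5 bp. That alternative keeps 1850 of the 3704 UBF peaks, those wider than 981 bp. Its count of 170 and its median width are thus not like for like, and 133 of the 170 were not among the 201. With at least 50% of the UBF peak covered the Pol I share was 0.568%. The other 25 values of these 5 results stayed within 1.5 times (counts), the interval (shares) or the interval of the median (width). The peaks themselves changed more than their number: of the 201, 187 were still incomplete with UBF peaks set to 500 bp and 192 with UBF peaks widened by 500 bp, but 95 with at least 50% covered. Of the 125 in the wider part of the UBF list, 37 were still incomplete when every list was cut to its wider 50%. No paired analysis was possible because each list is a single sample. Depth is unknown and each antibody has a single list, with any pooling of the UBF replicates unknown. An absent feature thus cannot be told apart from one under the caller's threshold.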

Other observations

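Incomplete sets were commoner in the Pol I list than in the UBF list. Of 1409 Pol I peaks in NIH3T3, 314 had 1 to 3 of the 4 lists (22.3%, 20.1 to 24.5), against 5.43% (4.72 to 6.21) of UBF peaks. Among peaks with any of the 4 lists the shares were 29.2% and 10.3%. The Pol I list is shorter and its peaks narrower, and the difference was not tested.

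The other active lists also met UBF mostly as complete sets. H3K9ac peaks with UBF had all 3 other lists in 97.3% of cases (1736 of 1785), against 47.3% of 26523 H3K9ac peaks without UBF. For H3K4me3 the shares were 96.9% and 47.6%, and for H4 hyperacetylation 94.6% and 33.6%. Peaks with UBF were wider, with medians of 2730 against 1516 bp for H3K9ac. None of the 1785 H3K9ac peaks with UBF was alone, against 803 of 26523 without UBF (3.03%, 2.82 to 3.24).

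Incomplete UBF peaks had another UBF peak within 10 kb in 11 of 201 cases (5.47%, 2.76 to 9.58), against 9.21% (7.90 to 10.7) of complete peaks and 2.41% (1.74 to 3.24) of peaks with none of the 4 lists. The nearest neighbour was complete in 6 of the 11, incomplete in 3 and without any of the 4 lists in 2. By chromosome, the lowest share of incomplete peaks was 2.88% on chromosome 3 (8 of 278, 1.25 to 5.59). The highest was 9.09% on chromosome 12 (14 of 154, 5.06 to 14.8), leaving out Y with 3 UBF peaks and the contigs. The intervals of these extremes overlap, and both include the 5.43% of the whole UBF list. Of the 14 on chromosome 12, 8 had Pol II alone. Chromosome 1 had 7 of the 43 peaks with the 3 marks and no Pol II, and 2 with Pol II alone.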
